A study of Mus musculus with 12 samples.

Results

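The subject is mouse chromosome 3 in the H3K36ac peak lists of liver tumours. Every peak that the deposited lists place on this chromosome was taken, whatever its score: 12597 of 109597 peaks in the 6 lists (11.5%). The chromosome was chosen by its peak density, the highest of the autosomes, so its excess over the other autosomes is described and not tested. Tests are of differences between the genotypes, which the choice did not use. The relative density and the bins are built from the same peak counts as the choice, so their genotype tests are not independent of it. The tumours came from mice treated with anti-PD-1, an antibody against an inhibitory receptor of T cells. In the LysM-Cre group (3 libraries) the mice carried the Cre recombinase that is driven from the lysozyme M locus, which is active in macrophages and neutrophils. In the TREM2-MKO group (3 libraries) Trem2, the gene of a lipid-sensing receptor of macrophages, was knocked out in myeloid cells. The labels give neither age nor how the tumours arose, and both groups had anti-PD-1. Whole tumour was profiled, so most cells in a TREM2-MKO sample need not have lost Trem2, and fewer cells with the mark cannot be told apart from less mark per cell. The design text counts 3 mice per genotype, but the labels do not tie a library to a mouse, so p-values measure the spread between these libraries, which may be technical. TREM2-MKO replicate 3 stood apart from the other 5 libraries: it had the shortest list, 276 of the chromosome 3 peaks, and its density across autosomes ran against theirs. The order of the densest bins, the recurrence counts and the main genotype differences are also given without it.

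H3K36ac is the acetylation of lysine 36 in the tail of histone H3, the same residue that is methylated over the bodies of transcribed genes. Acetylation neutralises the charge of the lysine and is found mainly at the promoters of active genes. Chromosome 3 is poor in genes. It holds 983 protein-coding genes in RefSeq's GRCm38.p6 table (6.27 per Mb, against 8.77 per Mb on the other autosomes), which ranks it 16 of 19. Genes covered 32.8% of its length, against 41.6% of the others.

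The promoters where peaks of different libraries met are shown first, because they are the places where these lists touch the start of a gene on this chromosome. A promoter window runs from 250 bases before to 50 bases after a start site, and 4 of the windows with peaks in 2 or more libraries are printed, 5′ to 3′ on the strand of the gene, from RefSeq's GRCm38.p6 promoter table (the assembly that mm10 names). Capitals mark the bases that lay inside the peak of every library called there. Slc50a1 encodes a sugar transporter (minus strand, chr3:89270521-89270820), Fgg the gamma chain of fibrinogen, made by hepatocytes (plus strand, chr3:83007474-83007773), H2ac18 a replication-dependent histone H2A (plus strand, chr3:96245247-96245546), and Extl2 a glycosyltransferase (plus strand, chr3:116007199-116007498).
Slc50a1: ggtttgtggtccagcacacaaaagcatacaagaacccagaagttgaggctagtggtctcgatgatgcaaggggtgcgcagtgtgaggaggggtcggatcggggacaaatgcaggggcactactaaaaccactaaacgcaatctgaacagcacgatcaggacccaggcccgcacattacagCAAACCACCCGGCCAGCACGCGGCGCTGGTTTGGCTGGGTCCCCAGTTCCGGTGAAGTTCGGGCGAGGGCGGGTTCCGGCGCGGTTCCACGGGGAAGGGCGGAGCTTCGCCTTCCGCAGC
Fgg: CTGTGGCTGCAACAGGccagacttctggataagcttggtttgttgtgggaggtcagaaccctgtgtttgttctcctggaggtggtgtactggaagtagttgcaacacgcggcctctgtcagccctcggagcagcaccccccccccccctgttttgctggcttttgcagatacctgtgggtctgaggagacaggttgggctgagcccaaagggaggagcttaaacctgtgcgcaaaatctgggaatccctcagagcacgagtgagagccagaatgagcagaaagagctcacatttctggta
H2ac18: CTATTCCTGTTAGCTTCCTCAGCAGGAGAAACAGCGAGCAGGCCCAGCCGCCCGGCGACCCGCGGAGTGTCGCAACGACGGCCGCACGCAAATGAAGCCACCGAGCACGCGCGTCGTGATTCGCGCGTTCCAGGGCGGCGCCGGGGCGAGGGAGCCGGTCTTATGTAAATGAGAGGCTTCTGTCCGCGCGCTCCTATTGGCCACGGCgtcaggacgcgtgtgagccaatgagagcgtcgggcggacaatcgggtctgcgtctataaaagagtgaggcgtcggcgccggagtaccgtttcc
Extl2: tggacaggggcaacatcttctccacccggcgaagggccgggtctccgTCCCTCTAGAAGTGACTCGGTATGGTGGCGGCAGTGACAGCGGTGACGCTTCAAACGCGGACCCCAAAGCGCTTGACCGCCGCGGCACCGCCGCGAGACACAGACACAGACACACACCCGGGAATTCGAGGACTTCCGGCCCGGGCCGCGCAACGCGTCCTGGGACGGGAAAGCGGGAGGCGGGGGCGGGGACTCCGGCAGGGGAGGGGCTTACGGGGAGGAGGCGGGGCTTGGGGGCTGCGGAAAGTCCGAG

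The Slc50a1 window was the one window on the chromosome with a peak in 3 libraries: LysM-Cre replicates 1 and 2 and TREM2-MKO replicate 2, with the authors' folds over local background of 3.28, 3.44 and 3.35. The Fgg window had peaks in LysM-Cre replicates 1 (3.22-fold) and 2 (2.97-fold), and only 16 bases at its upstream edge lay in both. LysM-Cre replicates 2 (4.32-fold) and 3 (4.43-fold) had the peak at H2ac18, which sits in a histone cluster with near-identical copies, so the placement of its reads is uncertain. LysM-Cre replicate 3 (3.03-fold) and TREM2-MKO replicate 1 (2.21-fold) had the peak at Extl2, which also lies over the start of Slc30a7, a zinc transporter gene on the other strand. These windows held 22, 5, 41 and 34 CG dinucleotides for Slc50a1, Fgg, H2ac18 and Extl2, where the median window of the autosomes held 7. The 4 were picked with values in view and do not stand for all such windows. Among the others, A830092H15Rik and Slc30a7 held 21 and 23. Those of Gm30063, Sema4a, Gm32900, Gm36498 and Gm40178 held 4, 4, 0, 5 and 0. The motif GGGCGG, searched on both strands, was found in all of them but Fgg and in 35.98% of all 31396 autosomal windows. TATAAA and CCAAT, also on both strands, were found at H2ac18 alone of the 4, and in 13.6% and 37.3% of all windows. Of 1637 promoter windows on chromosome 3, 124 (7.57%) touched a peak of any library and 12 (0.733%) touched peaks of 2 or more, against 4.28% and 0.356% of 29759 windows elsewhere. As a share of peaks, promoter windows took 0.959%, 0.636% and 1.28% on chromosome 3 in LysM-Cre (replicates 1 to 3). For TREM2-MKO they took 0.947%, 1.31% and 0.725%. Elsewhere it was 1.12%, 1.15% and 1.87%, and 0.858%, 1.94% and 1.03%, so the share was lower on chromosome 3 in every library but TREM2-MKO replicate 1. In TREM2-MKO replicate 3 the share on chromosome 3 rests on 2 peaks. Protein-coding genes were also sparser on chromosome 3, at 6.27 per Mb against 8.77 elsewhere. These shares were not tested.

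Chromosome 3 was the densest autosome in 5 libraries and not in the remaining one. In the order of replicates 1, 2 and 3, which holds for all such values, the LysM-Cre lists held 1877, 3144 and 3350 peaks on it. The TREM2-MKO lists held 2956, 994 and 276. Per Mb, over the span from its first to its last peak (3051845 to 159936347), this came to 11.96, 20.04 and 21.4 peaks in LysM-Cre and 18.8, 6.34 and 1.76 in TREM2-MKO. The other autosomes had 7.26, 11.9 and 7.34 peaks per Mb in LysM-Cre and 11.95, 2.60 and 1.94 in TREM2-MKO. The chromosome ranked 1 of 19 in every library but TREM2-MKO replicate 3, where it ranked 15. Chromosome 3 makes up 6.54% of the autosomal length, and it took 10.3%, 10.6% and 16.9% of the autosomal peaks in LysM-Cre and 9.93%, 14.6% and 5.96% in TREM2-MKO.

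The excess varied between libraries of a genotype more than between the genotypes. The relative density, peaks per Mb on chromosome 3 divided by peaks per Mb on the other autosomes of the same library, was 1.65, 1.69 and 2.91 in LysM-Cre and 1.58, 2.44 and 0.907 in TREM2-MKO. LysM-Cre replicate 3 and TREM2-MKO replicate 2 were high, TREM2-MKO replicate 3 was low, and the genotypes overlapped. The means were 2.08 ± 0.717 and 1.64 ± 0.767 (SD, n = 3 each), a difference of 0.442 that did not pass an exact two-sided permutation test (p = 0.5, where 3 against 3 libraries cannot go below 0.1). Without LysM-Cre replicate 3 the difference was 0.0284, and without TREM2-MKO replicate 3 it was 0.0754.

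The densest other autosome was chromosome 15 or 19 in the libraries where chromosome 3 ranked 1. Chromosome 3 was 1.15, 1.27 and 1.51 times as dense as that autosome in the LysM-Cre lists. The factor was 1.13 in TREM2-MKO replicate 1 and 1.46 in replicate 2. In TREM2-MKO replicate 3 the densest autosome was chromosome 14, at 2.56 peaks per Mb, which was the sparsest in 4 of the other libraries. Across the 19 autosomes, densities were ordered alike in the 10 pairs among the 5 other libraries (Spearman's rho 0.954 to 0.981). In the 5 pairs with TREM2-MKO replicate 3 the order ran the other way (rho −0.674 to −0.591). The same held over the 18 autosomes other than chromosome 3 (0.946 to 0.977 and −0.668 to −0.579). These correlations describe chromosomes within libraries that were called with pooled controls, and were not tested. Between peak density and gene density over the 19 autosomes, rho was −0.0825 to 0.0982 in the 5 libraries and −0.525 in TREM2-MKO replicate 3.

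**Figure D1:**
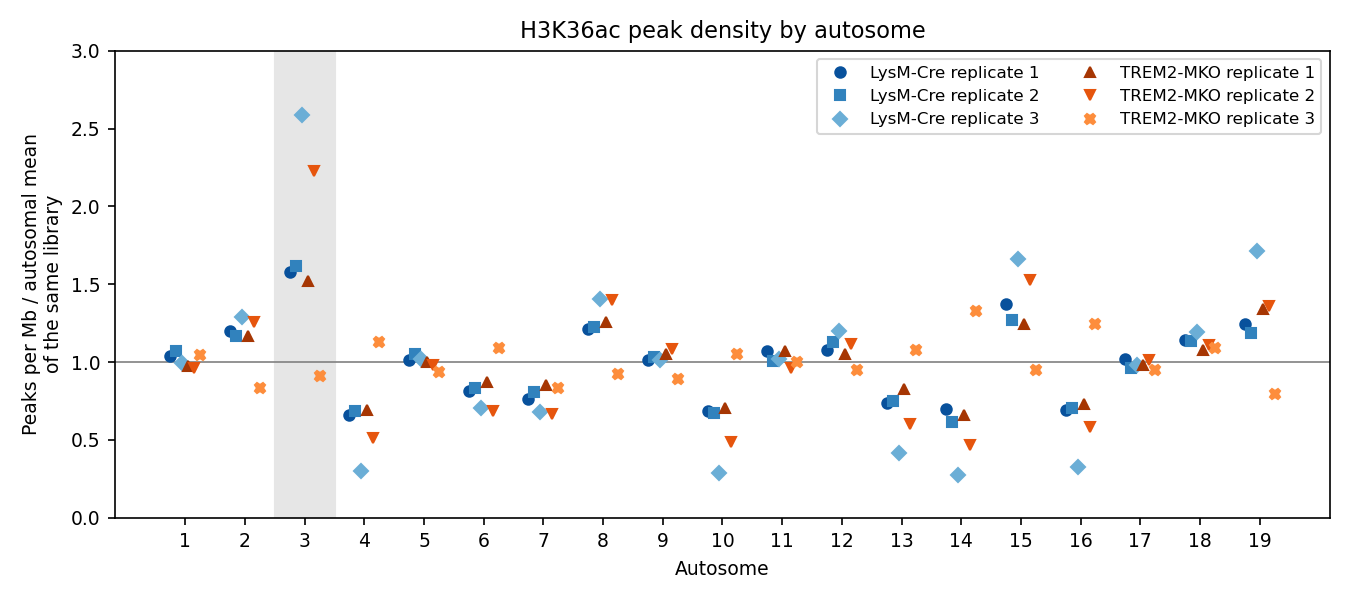
Peaks per Mb on each autosome divided by the autosomal mean of the same library, 1 point per library, with chromosome 3 shaded and the mean drawn at 1. On chromosome 3, 5 libraries lie above every other autosome of their own list and TREM2-MKO replicate 3 lies below 1.

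The excess ran along the whole chromosome. In 5 Mb bins, density was divided by the autosomal mean of the library. All 32 bins lay above that mean in each LysM-Cre library and in TREM2-MKO replicates 1 and 2. Of the 470 bins on other autosomes, 36.6% to 45.3% did so in these libraries. In TREM2-MKO replicate 3, 13 of the 32 bins lay above the mean, and 48.7% of bins elsewhere. The lowest bin stood at 1.06, 1.13 and 1.87 in LysM-Cre and at 1.05, 1.06 and 0 in TREM2-MKO. The highest stood at 2.25, 2.15 and 3.39 in LysM-Cre and at 2.11, 3.31 and 1.76 in TREM2-MKO. A full bin held a mean of 59.8, 100.1 and 106.7 peaks in LysM-Cre and of 94.0, 31.8 and 8.84 in TREM2-MKO, so single bins of TREM2-MKO replicate 3 rest on few peaks. The variance of bin counts divided by their mean was 1.72 to 2.58 on chromosome 3 and within the range of the 18 other autosomes in each library.

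The genotypes overlapped in every bin of chromosome 3. There, 0 of 32 bins had libraries of one genotype all above those of the other. Over all 502 autosomal bins, LysM-Cre lay above in 2.79% and TREM2-MKO above in 5.58%. The exact permutation test over samples, two-sided and adjusted by Benjamini-Hochberg over the 502 bins, called 0 bins, and the smallest adjusted p was 1. At an unadjusted p under 0.05 there were 0, a level that this test cannot reach with 3 against 3 libraries. Leaving out LysM-Cre replicate 1 or 2 or TREM2-MKO replicate 2 or 3 gave 3, 1, 14 and 2 bins of the 32 without overlap. Fewer libraries separate more easily, and shares over all autosomal bins were not computed with a library left out. These counts are therefore not read as a result about chromosome 3.

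**Figure D2:**
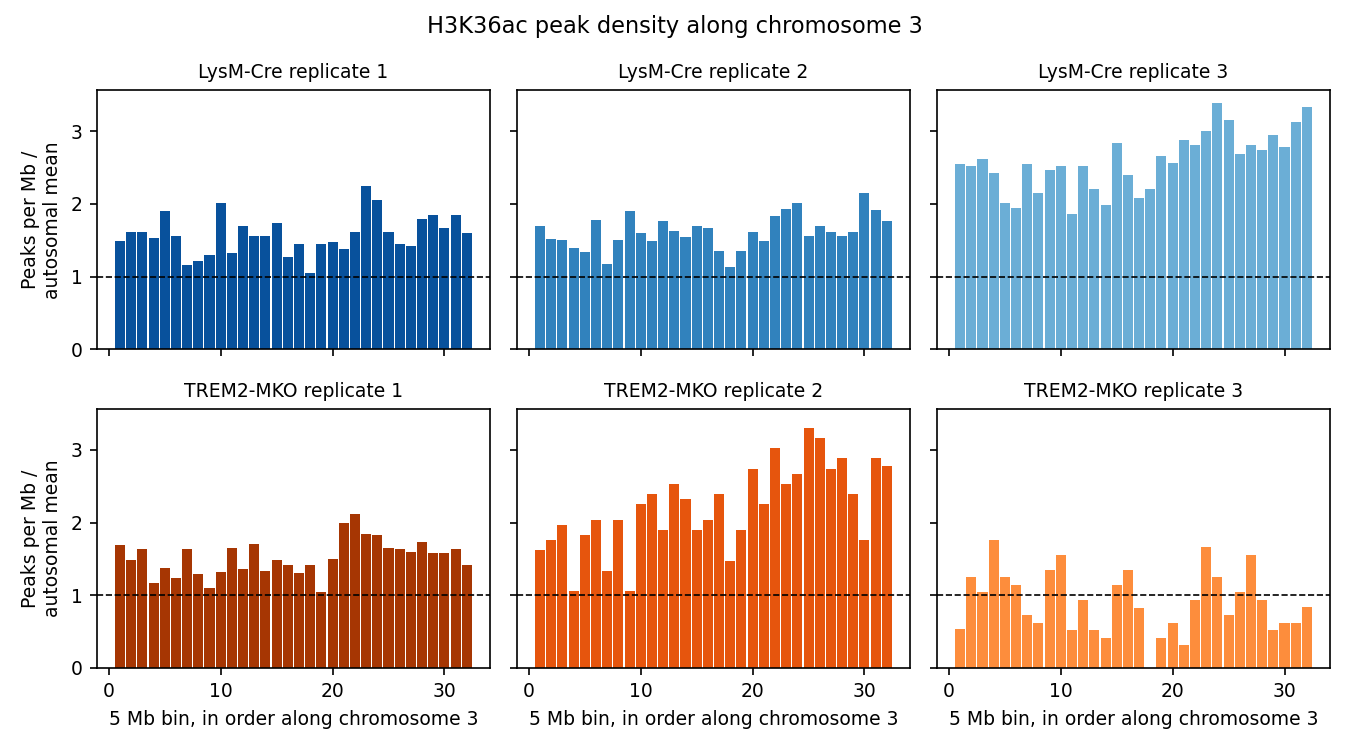
Peak density in 32 bins of 5 Mb, in order along chromosome 3, as a multiple of the autosomal mean of each library (dashed line at 1). Every bar of the 3 LysM-Cre libraries and of TREM2-MKO replicates 1 and 2 stands above the line, and 13 bars of TREM2-MKO replicate 3 do.

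Density was highest toward the distal part. The 5 densest bins by the mean over the 6 libraries were 110 to 115 Mb (2.20 times the autosomal mean), 115 to 120 Mb (2.20), 105 to 110 Mb (2.06), 150 to 155 Mb (2.01) and 120 to 125 Mb (2.001). Without TREM2-MKO replicate 3 they were still the 5 densest, at 2.31, 2.39, 2.28, 2.28 and 2.26, with 115 to 120 Mb first. The bin from 110 to 115 Mb held 10 protein-coding genes and 495 peaks. It was above the autosomal mean in all 6 libraries, at 2.25, 1.94 and 3.00 in LysM-Cre and 1.84, 2.53 and 1.66 in TREM2-MKO. Genes of these 5 bins with a peak near their ends in 2 or more libraries included S1pr1, the sphingosine-1-phosphate receptor of endothelium and lymphocytes, Sass6, a centriole assembly gene, Abca4, a retinoid transporter of the retina, and Usp33, a deubiquitinase gene.

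Gene-rich bins lay at both ends of the range. The bins from 85 to 90, 90 to 95 and 95 to 100 Mb held 105, 116 and 102 protein-coding genes, and among them are the S100 and histone clusters. Their mean relative densities were 1.21, 1.47 and 1.75, and the first was the lowest of the chromosome. The next in gene number, 105 to 110 Mb with 80 genes, was among the densest at 2.06. TREM2-MKO replicate 3 had 0 peaks from 85 to 90 Mb. Over the 32 bins, rho between density and the number of genes was −0.339, −0.330 and 0.00936 in LysM-Cre and 0.108, 0.219 and −0.619 in TREM2-MKO.

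When the chromosome was divided into 4 equal segments, the rise toward the distal end differed between libraries. From the proximal to the distal segment, relative densities were 1.502, 1.56, 1.60 and 1.66 in LysM-Cre replicate 1 and 1.496, 1.65, 1.59 and 1.74 in replicate 2. LysM-Cre replicate 3 went from 2.35 and 2.33 to 2.74 and 2.93. TREM2-MKO replicate 1 had 1.39, 1.43, 1.65 and 1.60, replicate 2 had 1.69, 2.14, 2.39 and 2.70, and replicate 3 had 1.07, 1.005, 0.727 and 0.846. The most distal segment was thus 1.60 times as dense as the most proximal in TREM2-MKO replicate 2, above the ratio of every other autosome of that library (0.444 to 1.45). In the other libraries 3 to 10 of the 18 other autosomes had a larger ratio than chromosome 3, whose ratio was 1.11, 1.16 and 1.24 in LysM-Cre, 1.15 in TREM2-MKO replicate 1 and 0.790 in replicate 3. The division was chosen after the data were seen. The order of the bins was shared weakly: rho over the 32 bins was 0.2505 to 0.541 in the 10 pairs without TREM2-MKO replicate 3 and −0.145 to 0.317 in the 5 pairs with it.

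The control background at the peaks stood out on chromosome 3 in the LysM-Cre lists. The fold and p-value of a peak fix the local background it was called against, and the lowest background of a list is the level used where the control shows no local excess. In the LysM-Cre lists, 47.0%, 42.9% and 52.5% of the chromosome 3 peaks had a background more than 3% above that lowest level. On the other autosomes 32.0%, 29.5% and 38.6% did. Chromosome 3 ranked 1 of 19 by this share in all 3 LysM-Cre libraries, with chromosome 19 next (41.8%, 37.2% and 48.2%). In the TREM2-MKO lists the shares on chromosome 3 were 29.4%, 27.7% and 26.1%, against 29.3%, 27.9% and 24.0% elsewhere, and the chromosome ranked 11, 10 and 8. The share also rose with peak density over the 18 other autosomes in the LysM-Cre lists (rho 0.810, 0.802 and 0.864). In the TREM2-MKO lists this rho was 0.692, 0.0361 and −0.548. A high share was thus shared by other dense autosomes in LysM-Cre, and its tie to density was not tested.

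The difference from the other autosomes was 14.1 ± 0.867 percentage points in LysM-Cre and 0.656 ± 1.21 in TREM2-MKO (SD, n = 3 each). The genotypes did not overlap (exact two-sided permutation p = 0.1, the smallest possible), and the gap was 13.4 points with all libraries and 14.1 without TREM2-MKO replicate 3. The lists were called against a pooled control, whose makeup is not given in the sources used here, and libraries that share a control are not independent in this measure. The control outside the peaks was not analysed here.

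Relative density can be written out for the peaks on either side of this level, which restates the shares above and is no separate evidence. Peaks at the lowest background had a relative density on chromosome 3 of 1.28, 1.37 and 2.25 in LysM-Cre and of 1.57, 2.44 and 0.882 in TREM2-MKO. Peaks above it had 2.42, 2.45 and 3.96 in LysM-Cre and 1.58, 2.42 and 0.984 in TREM2-MKO. The part of the control background in the density of the chromosome was not tested.

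**Figure D3:**
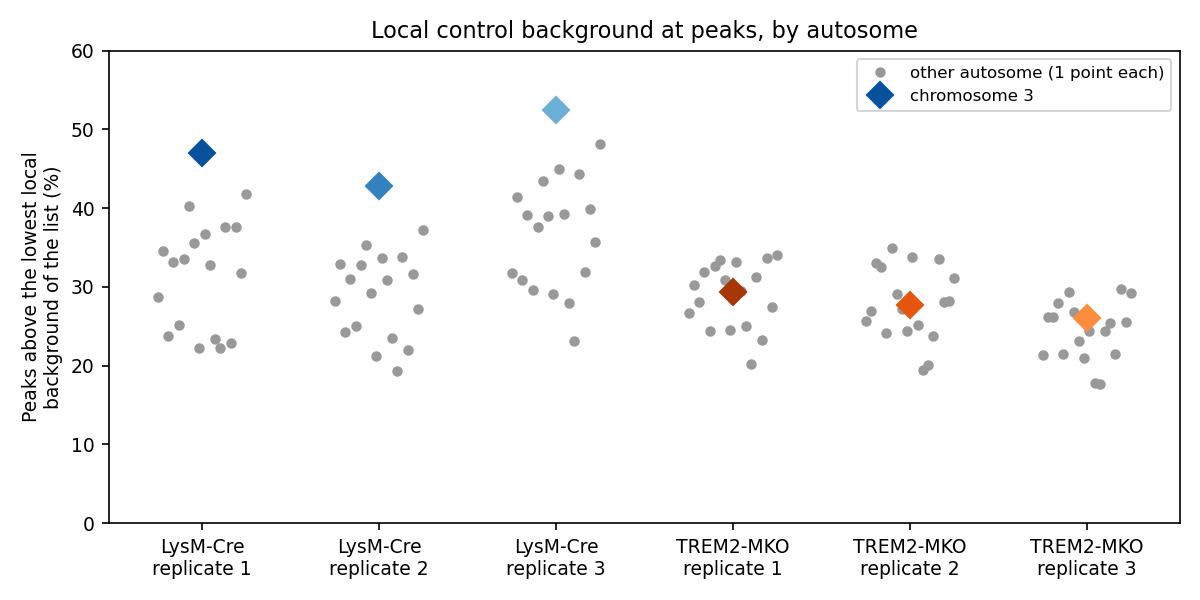
Share of peaks whose local background was more than 3% above the lowest of their list, in percent, for chromosome 3 (diamonds) and each of the 18 other autosomes (grey points). The diamonds lie above every grey point in the 3 LysM-Cre libraries, at 42.9% to 52.5%, and among the grey points in the 3 TREM2-MKO libraries.

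Single peaks on chromosome 3 had nearly the fold and width of peaks elsewhere in the same list. The median fold over background was 3.22, 3.10 and 3.25 in LysM-Cre and 3.05, 2.66 and 2.68 in TREM2-MKO, and its difference from the other autosomes was 0 in 4 libraries, 0.0918 in LysM-Cre replicate 2 and 0.0393 in TREM2-MKO replicate 2. Median widths were 445, 394 and 451 bp in LysM-Cre and 397, 480 and 465 bp in TREM2-MKO, between 4 and 19 bp wider than on the other autosomes of the same list. A q-value of 0.01 or less was reached by 14.8%, 18.8% and 17.3% of these peaks in LysM-Cre and by 17.4%, 12.4% and 10.5% in TREM2-MKO. The difference from the other autosomes in this share was 1.16 ± 0.903 percentage points in LysM-Cre and 0.167 ± 1.07 in TREM2-MKO (SD, n = 3 each; exact two-sided permutation p = 0.3). For the differences in median fold and in median width between the genotypes, the same exact permutation test gave p = 1. The median fold itself was higher in every LysM-Cre than in every TREM2-MKO list (3.19 ± 0.0766 and 2.80 ± 0.219, SD, n = 3 each, exact permutation p = 0.1), by 0.39 in the mean and by 0.33 without TREM2-MKO replicate 3. On the other autosomes the medians were 3.22, 3.01 and 3.25 in LysM-Cre and 3.05, 2.63 and 2.68 in TREM2-MKO. The lists thus differed there too, though LysM-Cre replicate 2 lay below TREM2-MKO replicate 1. The lowest local background was 5.92 in TREM2-MKO replicates 2 and 3 and 2.39 to 2.70 in the other lists. Its part in the fold was not tested. The median summit held 11 fragments in the 3 LysM-Cre libraries and TREM2-MKO replicate 1, 20 in TREM2-MKO replicate 2 and 23 in replicate 3, on chromosome 3 and elsewhere alike.

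In 3 lists the strongest autosomal peak lay on chromosome 3. By the authors' p-value, the top peak of LysM-Cre replicate 3 lay on it (chr3:44996363-44996905, 5.73-fold, 381.5 kb from Pcdh10, a protocadherin gene of the brain). So did the top peaks of TREM2-MKO replicates 1 and 2, both within Naaladl2, a long gene of the glutamate carboxypeptidase family, at 6.52-fold and 4.37-fold. LysM-Cre replicate 2 had its number 2 peak within Negr1, a neuronal adhesion gene (chr3:157069181-157069634, 5.96-fold). Of the 1000 strongest peaks of each list, chromosome 3 held 124, 110 and 135 in LysM-Cre and 105, 128 and 60 in TREM2-MKO. Its shares of all autosomal peaks, 10.3%, 10.6% and 16.9% and 9.93%, 14.6% and 5.96%, were thus exceeded or nearly matched in 4 lists and not reached in LysM-Cre replicate 3 and TREM2-MKO replicate 2.

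Peaks on chromosome 3 lay within genes about as often as genes cover it. Protein-coding genes held 32.8%, 31.7% and 32.9% of the peaks in LysM-Cre and 33.6%, 35.1% and 26.1% in TREM2-MKO, where genes cover 32.8% of the chromosome. Within 1 kb of an annotated gene end lay 2.72%, 2.42% and 2.84% in LysM-Cre and 1.89%, 3.82% and 1.81% in TREM2-MKO. On the other autosomes these shares were 3.74%, 3.48% and 4.66% in LysM-Cre and 3.16%, 4.79% and 3.29% in TREM2-MKO. The share near gene ends was lower on chromosome 3 in each library, where protein-coding genes were also sparser (6.27 per Mb, against 8.77 elsewhere). In TREM2-MKO replicate 3 it rests on 5 peaks. These shares were not tested.

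Recurrence was more frequent on chromosome 3 than elsewhere, although it stayed rare. Peaks of the 6 lists that overlapped by 1 bp or more were merged into 11774 regions, of which 11021 (93.6%) held a peak of 1 library, 693 of 2, 53 of 3, 5 of 4, 2 of 5 and 0 of all 6. Regions in 2 or more libraries made up 6.40% on chromosome 3, where they made up 4.44% of all 103935 autosomal regions. Regions in 3 or more libraries made up 0.510%, where the autosomes had 0.318%. The chromosome held 11.3% of all regions, 16.3% of those in 2 or more libraries, 18.2% of those in 3 or more, and 7 of the 26 in 4 or more. The number of peaks per Mb was higher here too, and its part in these counts was not tested. Of the 60 regions in 3 or more libraries, 19 (31.7%) lay within a protein-coding gene and 41 outside, at a median of 57.6 kb from the nearest. LysM-Cre replicates 1, 2 and 3 took part in 40, 36 and 37 of them and TREM2-MKO replicates 1, 2 and 3 in 38, 24 and 14. Without LysM-Cre replicate 1, 2 or 3 there were 25, 28 and 28 such regions, and without TREM2-MKO replicate 1, 2 or 3 there were 26, 43 and 49.

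Of the 7 regions called in 4 or 5 libraries, 1 lay within a gene. In Olfm3, a secreted olfactomedin gene of neurons, all 3 LysM-Cre libraries had a peak (3.71-, 4.30- and 4.05-fold) and so did TREM2-MKO replicates 2 (3.28) and 3 (3.13). The gene as a whole had 5, 5 and 3 peaks in LysM-Cre and 8, 3 and 2 in TREM2-MKO, or 11.7 per 100 kb over the 6 lists, where the chromosome had 8.03. Hao2, a peroxisomal hydroxyacid oxidase of liver and kidney, lay 23.9 kb from a region with peaks in LysM-Cre replicates 2 and 3 (3.29 and 2.47) and all 3 TREM2-MKO libraries (4.16, 3.80 and 3.49). The remaining 5 were near Prmt6, an arginine methyltransferase of histones (chr3:110286742-110288216, 35.7 kb), Slc39a8, a zinc and manganese transporter (chr3:135781686-135782693, 34.2 kb), Amy2b, a pancreatic amylase gene (chr3:112367485-112368301, 779.4 kb), 1700003H04Rik (chr3:124558956-124560157, 5.73 kb) and Lrriq3 (chr3:155581117-155582173, 386.8 kb). Their mean folds lay between 2.96 and 3.32.

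Regions of 1 genotype alone were few. The regions with a peak in every LysM-Cre library and no TREM2-MKO library numbered 9, 0.0764% of those on the chromosome, against 0.05% of all autosomal regions. The strongest, 479.7 kb from Pcdh10 (chr3:45914280-45915088), had folds of 5.72, 3.95 and 5.76. Others lay 57.6 kb from Rap1gds1, an exchange factor of small GTPases (chr3:139132840-139133817, 3.51, 2.94 and 4.13), 799.4 kb from Pabpc4l (chr3:47247427-47247888, 3.22, 3.51 and 3.84) and 381.5 kb from Pcdh10 (chr3:44996363-44996905, 1.97, 2.82 and 5.73). Named after their values were seen, the rest lay 46.5 kb from Il21, a cytokine gene of helper T cells (2.67, 3.24 and 4.43), 5.39 kb from Pgrmc2, a haem-binding membrane protein gene (3.80, 3.24 and 2.95), within Ttll7 (3.80, 2.70 and 3.25), a tubulin polyglutamylase gene, within Slc44a5 (3.14, 2.94 and 2.90), and 1484 kb from Ralyl (2.57, 2.33 and 1.91). Without LysM-Cre replicate 1, 2 or 3, when 2 of 2 libraries sufficed, the count was 142, 93 and 95. Shares over all autosomal regions were not computed with a library left out, and the lists differ in length. These counts are therefore not compared between the genotypes.

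The converse, every TREM2-MKO library and no LysM-Cre library, held for 1 region, 0.00849% of those on the chromosome, against 0.0221% of all autosomal regions. It lay within Naaladl2 (chr3:24197262-24197843), with folds of 6.52, 4.37 and 3.16. The gene, 1346 kb long, had 18, 29 and 26 peaks in LysM-Cre and 27, 10 and 6 in TREM2-MKO, at 8.62 per 100 kb near the level of the chromosome. Without TREM2-MKO replicate 3, the shortest list, 48 regions were found in the other 2 TREM2-MKO libraries and in no LysM-Cre library. Without TREM2-MKO replicate 1 or 2 the count was 6 or 14, and without LysM-Cre replicate 2 it was 2. At a −log10 p of 5 or more, 1 region met the LysM-Cre rule and 1 the TREM2-MKO rule. Shares over all autosomal regions were not computed at these settings either.

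**Figure D4:**
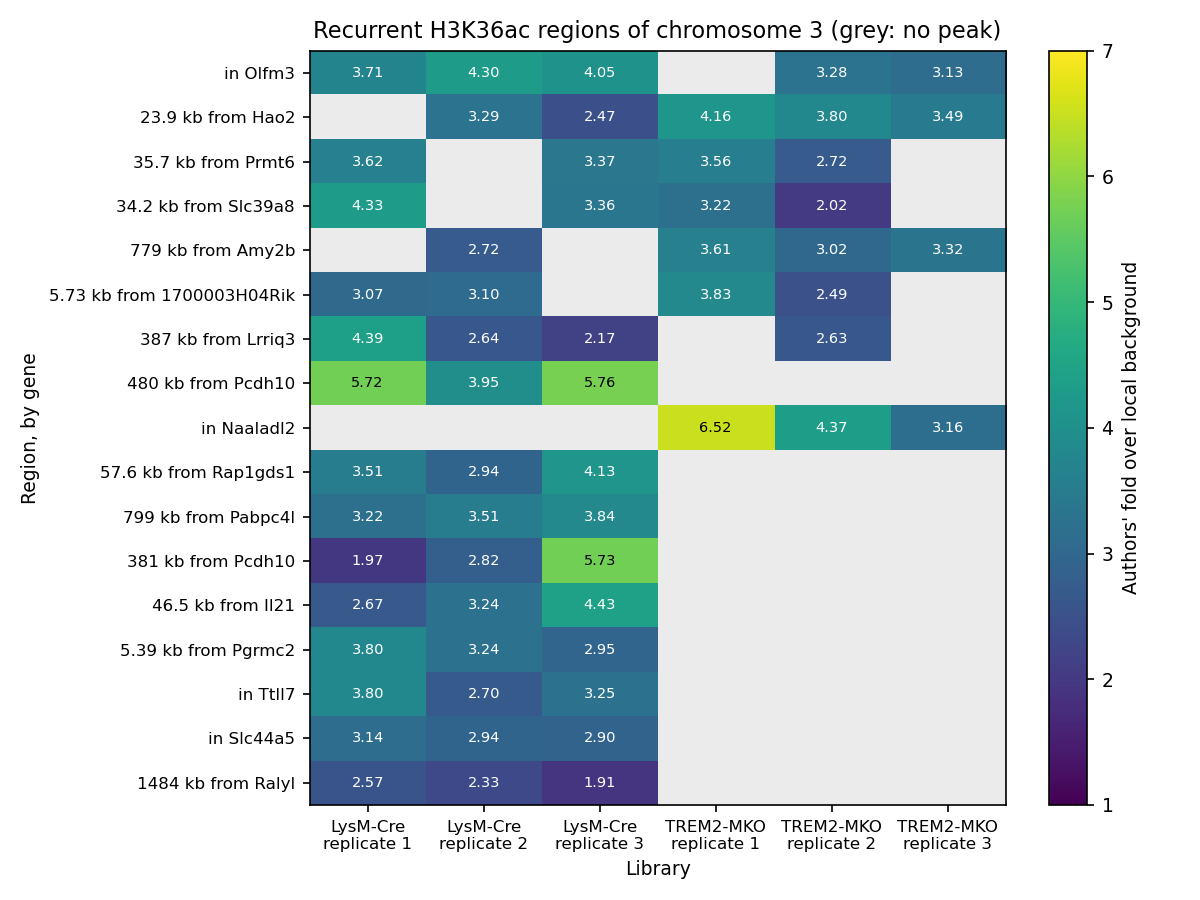
The authors' fold over local background in the 17 regions of chromosome 3 that were called in 4 or more libraries or in all libraries of 1 genotype alone, by library (columns) and nearest or containing gene (rows). Grey cells have no peak. The TREM2-MKO region within Naaladl2 is the one row filled for that genotype alone, with 3.16 to 6.52.

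Of the other regions in 3 libraries, 4 are given as examples, each with peaks in both genotypes. Within Rsrc1, a splicing-related gene, peaks stood in LysM-Cre replicate 1 (4.98) and TREM2-MKO replicates 2 (5.89) and 3 (3.83). Within Ank2, the ankyrin of excitable cells, they stood in LysM-Cre replicate 2 (4.32) and TREM2-MKO replicates 1 (3.88) and 2 (3.28). Near Ppp3ca, the catalytic subunit of calcineurin, 5.91 kb away, they stood in LysM-Cre replicate 1 (3.58) and TREM2-MKO replicates 1 (4.30) and 3 (3.15). Within Nfkb1, the p50 subunit of NF-kappaB, named after its values were seen, they stood in LysM-Cre replicates 1 (3.14) and 3 (3.84) and TREM2-MKO replicate 1 (3.29).

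The overlap of 2 libraries was measured as the Jaccard index, the base pairs shared by their peaks in percent of those covered by either. On chromosome 3 it was 0.501% to 1.54% within genotypes and 0.243% to 1.10% between them. On the other autosomes it was 0.540% to 1.06% within and 0.322% to 0.614% between. LysM-Cre replicates 2 and 3 shared the most on chromosome 3, with 156 overlapping peaks (1.54%). The 3 lowest pairs between genotypes all had TREM2-MKO replicate 3 as a partner (0.371%, 0.243% and 0.245% against LysM-Cre). Within and between ranges overlapped on chromosome 3, and they were not tested.

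At gene ends, 276 of 983 protein-coding genes of chromosome 3 (28.1%) had a peak within 1 kb of either annotated end in at least 1 library, against 17.5% of all 20661 autosomal genes. In 2 or more libraries it was 51 genes (5.19%), against 2.29%. Per library, 53, 82 and 96 genes were marked in LysM-Cre and 56, 40 and 5 in TREM2-MKO, or 5.39%, 8.34%, 9.77%, 5.70%, 4.07% and 0.509%. On the other autosomes the shares were 3.37%, 4.95%, 4.14%, 4.55%, 1.51% and 0.752%. The share was thus higher on chromosome 3 in every library but TREM2-MKO replicate 3, as the density of peaks was. No gene was marked in all libraries of 1 genotype and none of the other, where the autosomes had 0.0581% for LysM-Cre and 0.0194% for TREM2-MKO. Without 1 TREM2-MKO library, 1, 2 and 2 genes were marked in the other 2 alone. Slc50a1 was marked in 4 libraries, 2 of each genotype. Aadacl2, Sema4a, the gene of an immune semaphorin, and Lrif1, a gene of silenced chromatin, were each marked in 3 libraries, 1 of them TREM2-MKO. Without LysM-Cre replicate 1, 2 or 3 the genes marked in 2 or more libraries numbered 33, 24 and 26, and those in both remaining LysM-Cre libraries alone 14, 6 and 8. Shares over all autosomal genes were not computed with a library left out, so these counts are not compared between the genotypes.

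Hepatocyte genes were counted first of the lists, as the tissue was liver tumour. The list had 30 genes of chromosome 3, of which 7 (23.3%) were marked at an end. All genes of the chromosome had 28.1%, so this share cannot serve as a check on the tissue. Fgg, Etfdh (electron transfer from fatty acid oxidation) and Gstm4 (a glutathione transferase) were each marked in 2 LysM-Cre libraries alone, and the alcohol dehydrogenase genes Adh1 and Adh4 in 1 of each. Fga and Fgb, the other fibrinogen chains, had no peak at their ends in any list. Summed over libraries, the list had 9 marks in LysM-Cre tumours against 3 in TREM2-MKO tumours, where all genes of the chromosome had 231 against 101. The splits of the other lists are to be read against the same totals. Dpyd, of pyrimidine breakdown, named after its values were seen, had no peak at an end but 109 within its 870.8 kb (12.5 per 100 kb). A gene without a peak in these lists may still carry the mark.

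Genes of immune, stromal and dividing cells were counted in the same way. The shares are to be read beside the 28.1% of all genes of the chromosome that were marked. Of 23 myeloid genes, 10 (43.5%) were marked, 1 of them in 2 or more libraries. They had 7 marks over the LysM-Cre and 4 over the TREM2-MKO libraries (all genes 231 and 101). S100a10, an annexin-binding protein gene, was marked in 2 LysM-Cre libraries. S100a8, a subunit of calprotectin, and Tlr2, a receptor for bacterial lipopeptides, were marked in 1 LysM-Cre library each. So were P2ry12, P2ry13 and Gbp7. Ctss, a lysosomal protease gene, Ptx3, Nfkb1 and Gbp5 were marked in 1 TREM2-MKO library each. Of 16 lymphocyte genes, 6 (37.5%) were marked, 1 of them in 2 or more libraries, with 4 and 3 marks. Lef1, a factor of naive T cells, was marked in 1 TREM2-MKO library. Il2 and Il21 had no mark at their ends. Of 12 endothelial and stromal genes, 4 (33.3%) were marked, with S1pr1 in 2 LysM-Cre libraries and 4 and 1 marks in all. Of 15 growth and division genes 3 (20%) were marked, among them the kinetochore motor Cenpe in 1 LysM-Cre library.

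Chromatin enzyme genes and long neuronal genes were the remaining lists. None of the 9 chromatin enzyme genes found on the chromosome had a peak at an end, among them Ash1l, a methyltransferase of H3K36 itself, and Setdb1, a methyltransferase of H3K9, though 7 of the 9 had a peak within the gene. Of the 28 neuronal and adhesion genes, with a median length of 311.3 kb, 8 (28.6%) were marked at an end, where 28.1% of all genes were. A peak within the gene was found in 26 of them, where 68.1% of all genes of the chromosome had one. Nlgn1, a neuroligin gene of 911.1 kb, had 15, 14 and 16 peaks in LysM-Cre and 17, 3 and 4 in TREM2-MKO, and Negr1 (754.7 kb) 8, 17 and 17 and 13, 3 and 0. Per 100 kb over the 6 lists these genes had 7.57 and 7.69 peaks, near the 8.03 of the chromosome. Differences between the lists and other genes were not tested, and the genes were chosen with earlier results of these data known.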

How the data were processed

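H3K36ac ChIP-seq peak lists of 6 liver tumour libraries were used, 3 per genotype. The 6 inputs entered no comparison. Per the labels' protocols, cross-linked tissue was fragmented by sonication, and the immunoprecipitated DNA was amplified over the whole genome before library preparation. The submitters' processing notes list deepTools, MACS2, Bowtie2, Picard, Trimmomatic and SAMtools, and the build mm10. Their versions are not given in the sources used here. File names speak of removed duplicates, a pooled control, a p-value limit of 0.01 and a filter. For each peak the authors deposited a score, a fold enrichment (a ratio to local background), the −log10 of its p-value and of its q-value, and a summit offset. Read depth was not analysed here.

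Density was the number of peaks over the span between a chromosome's first and last peak, with summits placed in 5 Mb bins. The local background was solved as the value that, with a whole number of fragments, returned the fold, (pileup + 1)/(background + 1), and the Poisson p-value. In each library at least 99.4% of autosomal peaks were solved within 0.01 on the −log10 scale, with the pileup scaled by 0.903 and 0.798 in TREM2-MKO replicates 2 and 3. This measure was added after the data were seen. The genotypes were set against each other by an exact permutation test (20 assignments, two-sided). Peaks of different lists were merged at 1 bp. Genes came from RefSeq tables of GRCm38.p6. Named are the genes in or nearest to the first 25 regions in 3 or more libraries, ordered by libraries and mean fold, those of the 5 densest bins, and list genes marked in 2 or more libraries. Further genes illustrate a list or a promoter and were picked with values in view. Some genes of the lists are not reported here by name. The chromosome and the lists were chosen with earlier results of these data known. Thresholds, bin size, overlap, gene window and each library were varied. Python 3.11.15, numpy 2.4.6, pandas 2.3.3, scipy 1.17.1 and matplotlib 3.10.9 were used, and the scripts were tested on simulated data.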

Additional observations from a re-analysis of the deposited data

How the results depend on the processing

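The genotype difference in relative density kept its sign under all 13 alternatives and passed no test. It was 0.0284 to 0.841 with 1 library left out, 0.412 with −log10 p from 5 up and 0.317 against the median of the other autosomes. That in the local background stayed between 12.96 and 14.1 percentage points with 1 library left out and was 7.41 with a limit of 20% above the lowest background, an alternative chosen after seeing the data. The difference in median fold (0.0175) turned to −0.0131 without LysM-Cre replicate 2, −0.0117 with −log10 p from 5 up and −0.00886 with equal numbers of the strongest peaks, and its range with 1 library left out was −0.0131 to 0.0328. That in median width (−0.667 bp) turned to 3.83 and 3.67 bp under the same 2 settings, to 0.833 without LysM-Cre replicate 2 and to 3.5 without TREM2-MKO replicate 2 (−4 to 3.5 with 1 library left out). Bins with genotypes not overlapping were 0 of 32. They became 3 with −log10 p from 5 up, 5 with −log10 q from 2 up and 1 with equal numbers. Relative to the chromosome there were 2, and 0 to 14 with 1 library left out (14 without TREM2-MKO replicate 2). With 2 Mb bins, which number more than 32, there were 9. Shares over all autosomal bins at these alternatives were not computed.

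Regions in 3 or more libraries, 60, fell to 11 with −log10 p from 5 up, 6 with −log10 q from 2 up, 9 with equal numbers, 32 with an overlap of 50% of both peaks and 25 to 49 with 1 library left out. LysM-Cre-only regions, 9, fell to 1, 1 and 1 under the first 3 of these and were 9 to 142 with 1 library left out, where 2 of 2 libraries suffice. TREM2-MKO-only regions, 1, became 2 with −log10 q from 2 up, 3 with equal numbers and 1 to 48 with 1 library left out. Genes marked at an end in 2 or more libraries, 51, became 8, 4 and 5 under these 3 settings, 482 over gene bodies, 152 with 2.5 kb windows, 20 at start sites (chosen after seeing the data) and 24 to 47 with 1 library left out. Genes marked in all LysM-Cre libraries only, 0, became 20 over gene bodies, 1 with 2.5 kb windows and 0 to 14 with 1 library left out, and TREM2-MKO-only genes, 0, became 1 with 2.5 kb windows and 0 to 2. Stricter limits leave fewer peaks and wider windows take in more. Shares over all autosomes were not computed for these alternatives.

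Whether replicate numbers pair the libraries could not be decided. Deviations of bin densities from the genotype means correlated at −0.0972, −0.502 and −0.600 for replicates 1, 2 and 3. Pairs with unlike numbers ran from −0.367 to 0.583. Deviations within a genotype depend on each other, so these values cannot show how the libraries were processed. With a replicate block the difference in relative density was 0.442 (exact sign-flip p = 0.75), that in local background 13.4 (p = 0.25, the smallest possible), those in fold, width and q-value share 0.0175, −0.667 and 0.996 (p = 1, 1 and 0.5), and 3 bins had all pairs in 1 direction. Read depth was not analysed here, so what it limits is not given. The fewest peaks on the chromosome, 276, were in TREM2-MKO replicate 3.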
